A study of Rattus norvegicus with 23 samples.

Results

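The matrix genes described here are the collagens, the laminin chains, the lysyl oxidases, the tissue inhibitors of metalloproteinases (TIMPs) and the matrix metalloproteinases (MMPs), together with Fn1, Fbn1, Postn, Sparc, Bgn, Vcan, Dcn, Lum, Eln and Fbln2. They were chosen by symbol, leaving out the neutrophil enzymes Mmp8 and Mmp9, and a gene was kept when its counts over all 23 libraries came to 100 or more. Of 93 genes that matched by symbol 75 were kept, and 72 of these passed the low-count filter and were tested, out of 28913 genes in the table and 15079 tested. Just inside the count minimum were Timp4 with 104 counts, Col10a1 with 122 and Mmp13 with 129, the 3 kept genes that were not tested. Just outside it were Col9a3 with 97, Mmp10 with 68 and Col6a4 with 66. Col4a3bp matched by its letters alone and is listed in RefSeq as Cert1, a ceramide transfer protein and no collagen, so counts are also given without it.

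Portosinusoidal vascular disease affects small portal vessels and sinusoids of livers without cirrhosis, and the study models it in rats. RNA from whole liver of Sprague Dawley rats was sequenced. The 10 Selfox libraries are from rats on a selenium-enriched diet that were given intravenous oxaliplatin (3 mg/kg), 5-FU (5-fluorouracil, 25 mg/kg) together with folinic acid (45 mg/kg) every week, 8 injections over 8 weeks. The 7 LPS libraries are from rats that were laparotomized under anaesthesia, carried a permanent catheter into the portal circulation and received lipopolysaccharide, a component of bacterial cell walls, at 1 mg/kg 2 times per week over 8 weeks. The 6 Control libraries are from untreated rats. The diet and the 3 drugs were always given together, and surgery, catheter and LPS likewise, so their parts cannot be told apart. Neither sex nor age is given in the labels. The labels do not say that libraries of a group are separate rats, so the p-values below measure the spread between these libraries, which may be technical.

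The Selfox libraries held 65.1 to 74.8 M counts (M, mega), the LPS libraries 70.4 to 79.2 M and the Control libraries 31.9 to 53.8 M, so Control was sequenced less deeply than either model. The liver label fitted the data, with 9 hepatocyte markers summing to between 139582 and 250182 CPM (counts per M counts) in every library. The clock gene Dbp exceeded the clock gene Arntl in log2 CPM in 5 libraries (Selfox 8, LPS 5, LPS 6, LPS 7 and Control 55), and each member whose call ended or appeared without this set is given both ways. Some libraries stood apart over many members. Selfox 9 had the highest value of its group in 32 of the 72 tested members and Selfox 6 the lowest in 26, LPS 4 the highest in 28 and LPS 6 the lowest in 31, and Control 55 the lowest in 31.

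The extracellular matrix of the liver is made mainly by hepatic stellate cells, portal fibroblasts and endothelial cells, and normal sinusoids have little of it. Fibrillar collagens form the fibres of scars, while type IV collagen and laminins form the sheets of basement membrane under vessels and ducts. Sinusoids of normal liver lack a continuous basement membrane, and its appearance is a known part of sinusoidal capillarization. Lysyl oxidases cross-link collagen and elastin, MMPs cut matrix proteins, and TIMPs inhibit the MMPs. In bulk tissue fewer cells of a type and less RNA per cell cannot be told apart.

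Some matrix genes changed and most did not pass the test. With edgeR's quasi-likelihood F test and a Benjamini-Hochberg adjusted p under 0.05, 21 of 72 members changed in Selfox livers against Control livers, 16 higher and 5 lower. That is 29.2% of the members, against 29.1% of all tested genes (14.2% higher and 14.9% lower), so the members changed about as often as any gene. In LPS livers 7 members changed against Control, 1 higher and 6 lower, which is 9.72% of the members against 14.7% of all genes (7.71% higher and 6.99% lower). Between the models 15 members changed in Selfox livers against LPS livers, 12 higher and 3 lower, which is 20.8% against 14.5% of all genes (6.86% higher and 7.64% lower). The balance in LPS rested on single libraries, since it was 4 higher and 1 lower without LPS 6, 3 higher and 2 lower without LPS 1 or without Control 40, and 2 higher and 2 lower without the 5 libraries with Dbp above Arntl. Without the same 5 libraries 6 members were higher and 4 lower in Selfox than in LPS. Without Col4a3bp, which passed in no comparison with edgeR, these counts stood over 71 genes. The 3 comparisons share libraries and are not independent of each other.

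The median log2 fold change of the members was 0.05 in Selfox against Control (0.01 over all genes), 0.02 in LPS against Control (0.01 over all genes) and 0.17 in Selfox against LPS (0.00 over all genes). All kept members together took 0.509 ± 0.0473% of the counts in Selfox (SD, n = 10), 0.493 ± 0.05% in LPS (n = 7) and 0.556 ± 0.0759% in Control (n = 6). Without Fn1, which the liver makes as plasma fibronectin, the shares were 0.196 ± 0.0229% in Selfox, 0.186 ± 0.0207% in LPS and 0.184 ± 0.0161% in Control. These shares overlap within their spread.

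**Figure D1:**
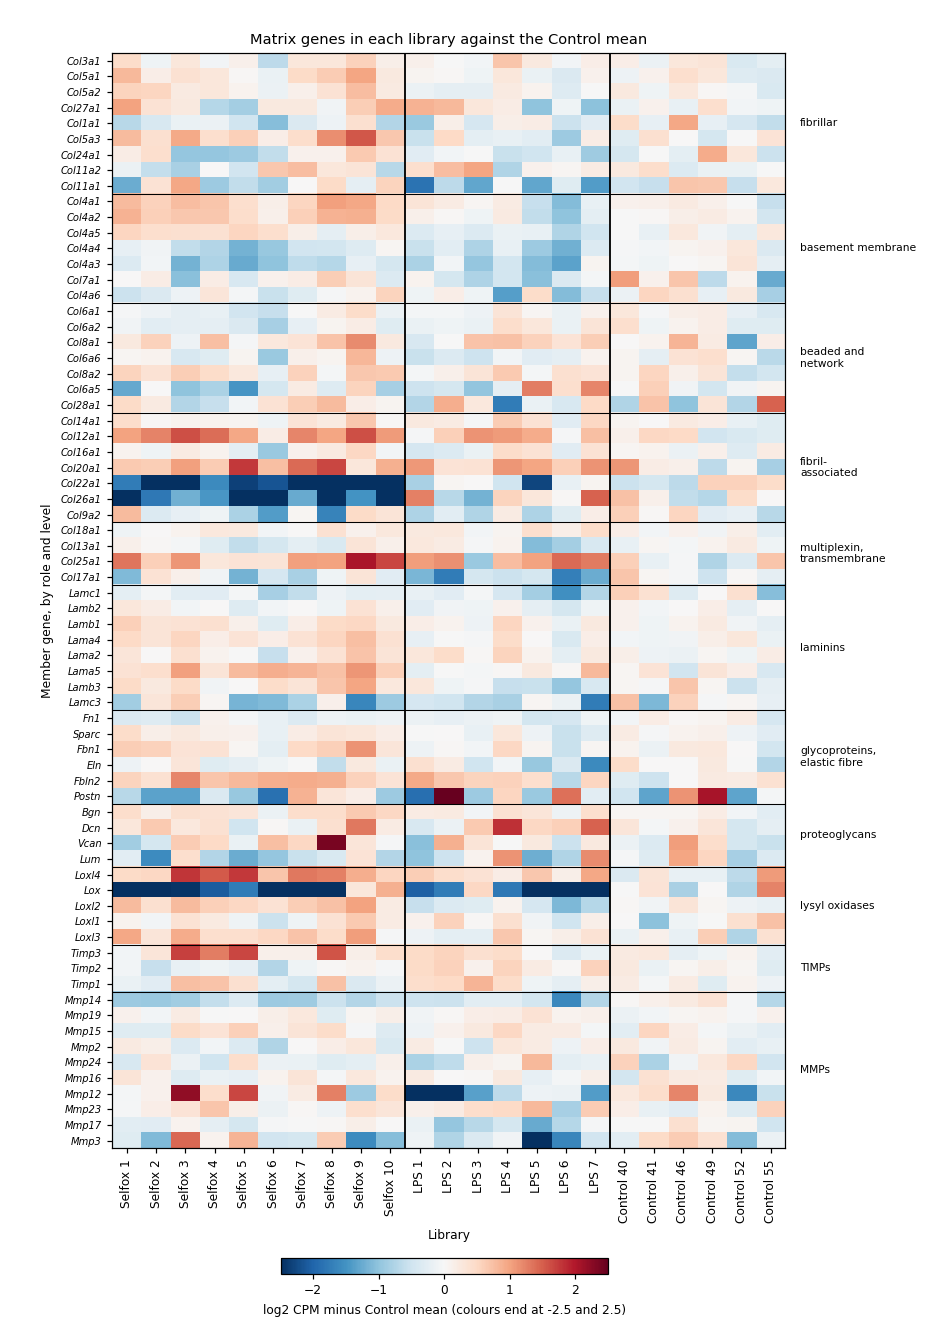
Log2 CPM of 70 tested matrix genes (rows, grouped by role and ordered by level) in each of the 23 libraries (columns, in the order Selfox, LPS and Control), less the Control mean of that gene; red is above and blue below it, and colours end at -2.5 and 2.5. Red patches in the Selfox columns are limited to some genes, such as Col4a1, Col4a2, Col12a1 and Loxl4, while Col22a1, Col26a1 and Mmp14 are blue there.

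The chains of type IV collagen did not move as a block. This collagen is built as trimers of 6 chains encoded in 3 pairs of neighbouring genes. The alpha 1 and alpha 2 chains, from Col4a1 and Col4a2, make the common network of vascular basement membranes, and the alpha 3 and alpha 4 chains, from Col4a3 and Col4a4, join the alpha 5 chain from Col4a5 in specialised membranes such as that of the kidney glomerulus. In Selfox livers the first pair rose and the second fell against Control, and of these calls those of Col4a1 and Col4a2 held under every alternative setting while those of Col4a3 and Col4a4 did not. By the RefSeq annotation of GRCr8, Col4a1 (chr16:84885597-84996482, forward strand) and Col4a2 (chr16:84749672-84885520, reverse strand) point away from each other with 76 bases between them, and Col4a3 (chr9:91323990-91453088, forward) and Col4a4 (chr9:91281324-91323577, reverse) have 412 bases between them. Col4a5 and Col4a6 on chromosome X have 1263.

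The promoter windows of the 4 genes that moved in opposite directions are given below, from 250 bases before to 50 bases after the RefSeq start, 5′ to 3′ on each gene's own strand (RefSeq, GRCr8; 54 of the 75 members had such an entry and all 75 matched a RefSeq gene). Capitals mark matches, on either strand, to the CCAAT box, to the GC box with the letters GGGCGG, or to the SMAD box with the letters CAGAC. The AP-1 site with the letters TGANTCA and the TATA box with the letters TATAAA were searched too and had no match in the 4 windows. The windows lie at chr16:84885347-84885646 for Col4a1, chr16:84885471-84885770 for Col4a2, chr9:91323740-91324039 for Col4a3 and chr9:91323528-91323827 for Col4a4.
Col4a1: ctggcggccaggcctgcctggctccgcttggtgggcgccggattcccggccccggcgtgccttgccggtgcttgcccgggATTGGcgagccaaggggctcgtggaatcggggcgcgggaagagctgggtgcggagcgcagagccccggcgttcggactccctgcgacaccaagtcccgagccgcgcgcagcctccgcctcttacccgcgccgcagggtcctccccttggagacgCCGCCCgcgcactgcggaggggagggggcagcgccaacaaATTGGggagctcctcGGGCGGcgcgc
Col4a2: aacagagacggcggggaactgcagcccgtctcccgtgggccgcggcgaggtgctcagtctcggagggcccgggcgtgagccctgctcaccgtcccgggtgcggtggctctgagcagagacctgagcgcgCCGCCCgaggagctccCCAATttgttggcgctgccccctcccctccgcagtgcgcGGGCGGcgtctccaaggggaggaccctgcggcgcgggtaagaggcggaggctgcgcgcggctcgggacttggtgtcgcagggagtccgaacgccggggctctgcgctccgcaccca
Col4a3: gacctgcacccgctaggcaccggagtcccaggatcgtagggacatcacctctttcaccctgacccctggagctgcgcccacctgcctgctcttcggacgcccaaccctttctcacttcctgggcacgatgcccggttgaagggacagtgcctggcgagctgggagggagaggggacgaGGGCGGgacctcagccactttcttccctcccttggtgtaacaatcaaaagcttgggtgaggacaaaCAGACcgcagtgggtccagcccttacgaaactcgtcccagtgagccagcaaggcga
Col4a4: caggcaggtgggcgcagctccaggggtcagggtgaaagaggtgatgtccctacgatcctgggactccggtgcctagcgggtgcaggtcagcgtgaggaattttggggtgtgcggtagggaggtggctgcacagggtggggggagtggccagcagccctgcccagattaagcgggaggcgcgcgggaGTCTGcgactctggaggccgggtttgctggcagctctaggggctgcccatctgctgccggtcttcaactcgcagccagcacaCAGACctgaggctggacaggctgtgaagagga
The windows of Col4a1 and Col4a2 share 176 of their 300 bases, read on opposite strands, and those of Col4a3 and Col4a4 share 88. G and C made up 75.0% and 73.7% of the Col4a1 and Col4a2 windows and 62.0% and 65.3% of the Col4a3 and Col4a4 windows. Col4a1 had 2 CCAAT boxes and 2 GC boxes and Col4a2 had 1 and 2, and in the overlap a CCAAT box and both GC boxes of the pair are the same bases. Col4a3 had 1 GC box and 1 SMAD box, and Col4a4 had 2 SMAD boxes. No match overlapped a match of another motif. Of all 33469 promoter windows of this length 37.5% held a CCAAT box, 33.1% a GC box, 50.1% a SMAD box, 14.2% TATAAA and 7.3% the AP-1 letters, so these matches are common and are given as a description only.

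Col4a1 had a lowest, median and highest level of 59.6, 83.5 and 109 CPM in Selfox, 25.3, 55.7 and 67.0 CPM in LPS and 35.9, 58.0 and 62.3 CPM in Control. Of the 10 Selfox libraries 9 lay above every Control library and 9 above every LPS library, Selfox 6 being the exception in both. The log2 fold change was 0.65 ± 0.17 (SE) in Selfox over Control (adjusted p = 0.00740, edgeR), a 1.56-fold rise, and 0.75 ± 0.16 over LPS (adjusted p = 0.00376). Col4a2 had 32.5, 46.5 and 55.8 CPM in Selfox, 15, 27.9 and 34.8 CPM in LPS and 21.6, 31.3 and 34.4 CPM in Control. It likewise rose by 0.62 ± 0.15 over Control (adjusted p = 0.00346) and by 0.81 ± 0.14 over LPS (adjusted p = 0.000557). The ratio of Col4a1 to Col4a2 counts, with no length correction, was 1.82 ± 0.0952 in Selfox, 1.89 ± 0.134 in LPS and 1.79 ± 0.128 in Control.

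The size of these differences depended in part on the 5 libraries with Dbp above Arntl. Col4a1 was at 35.9, 25.3 and 46.8 CPM in LPS 5, 6 and 7, against 55.7 to 67.0 CPM in the other 4 LPS libraries, and at 35.9 CPM in Control 55, against 53.1 to 62.3 CPM in the other 5 Control libraries. Selfox 8, in contrast, had the highest value of all. Without the 5 libraries the rises of Col4a1 and Col4a2 over Control were 0.50 and 0.51 (adjusted p = 0.000936 and 0.000804), and those over LPS were 0.42 and 0.54 (adjusted p = 0.0203 and 0.00481). Sinusoidal endothelial markers were low in LPS 5 and LPS 6, with a summed level of 243 and 228 CPM. The sum was 348 to 449 CPM in the other 5 LPS libraries, 422 to 516 CPM in Selfox and 414 to 489 CPM in Control. LPS 7, Selfox 8 and Control 55 had 348, 433 and 414 CPM, so the 5 libraries did not share this low level. Of the 13 markers tested 3 were higher (Bmp2, Kdr and Lyve1) and none lower in Selfox than in LPS, beside 6.86% and 7.64% of all tested genes. Against Control 2 rose (Kdr and Bmp2) and 2 fell (Oit3 and Flt4) in Selfox, beside 14.2% and 14.9%. None passed in LPS against Control, beside 14.7%, with 4 at an unadjusted p under 0.05 in edgeR. Of 10 vascular endothelial markers 2 rose (Vwf and Sele) and 2 fell (Sox17 and Clec14a) in Selfox against Control. The part of endothelial cells in the result was not tested.

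Col4a5 differed between the models rather than between Selfox and Control alone. It had 9.78, 15.1 and 16.7 CPM (lowest, median and highest) in Selfox, 6.81, 9.08 and 10.2 CPM in LPS and 9.73, 11.1 and 13.7 CPM in Control. Selfox 8 was the only Selfox library inside the LPS range. The log2 difference of Selfox from LPS was 0.66 ± 0.11 (adjusted p = 0.000206, edgeR). Against Control it was 0.31 ± 0.11 in Selfox (adjusted p = 0.0406) and -0.36 ± 0.12 in LPS (adjusted p = 0.0438). Both of these calls depended on single libraries, since the Selfox one was lost when Selfox 1, 2, 3, 5 or 6 or Control 40, 41, 49 or 52 was left out (highest adjusted p 0.0929), and the LPS one without LPS 1, 3, 6 or 7 or Control 40, 46, 49 or 55 (highest adjusted p 0.110). Without the 5 libraries with Dbp above Arntl the Selfox difference was 0.41 (adjusted p = 0.00193) and the LPS difference -0.22 (adjusted p = 0.179).

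Col4a3 and Col4a4 were lower in Selfox livers. Col4a3 had 0.715, 1.08 and 1.66 CPM in Selfox, 0.672, 0.999 and 1.82 CPM in LPS and 1.5, 1.72 and 2.18 CPM in Control, and 8 of 10 Selfox libraries lay below every Control library. It fell by 0.64 on the log2 scale in Selfox against Control (SE 0.21, adjusted p = 0.0250; 0.0730 without Control 52). Its log2 difference in LPS against Control was -0.60 ± 0.23 (adjusted p = 0.0796), short of the threshold.

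Col4a4 had 6.33, 10.4 and 14.9 CPM in Selfox, 6.25, 9.79 and 12.6 CPM in LPS and 11.1, 14.5 and 17.5 CPM in Control. It fell by 0.47 (SE 0.16, adjusted p = 0.0348) in Selfox and by 0.57 (SE 0.18, adjusted p = 0.0333) in LPS, both against Control. Neither call held throughout, as the Selfox one was lost without Selfox 3, 4, 5 or 6 or any Control library but Control 55 (highest adjusted p 0.102), and the LPS one without LPS 1, 3, 5 or 6 or Control 46, 49 or 52 (highest adjusted p 0.0822) and without the 5 libraries with Dbp above Arntl (adjusted p = 0.102). Col4a6 and Col7a1, which encodes the anchoring fibril collagen, passed in no comparison. In all, 3 basement membrane collagens of 7 rose and 2 fell in Selfox against Control, 2 fell in LPS against Control, and 3 were higher in Selfox than in LPS. That is 71.4%, 28.6% and 42.9% of the 7, against 29.1%, 14.7% and 14.5% of all tested genes.

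**Figure D2:**
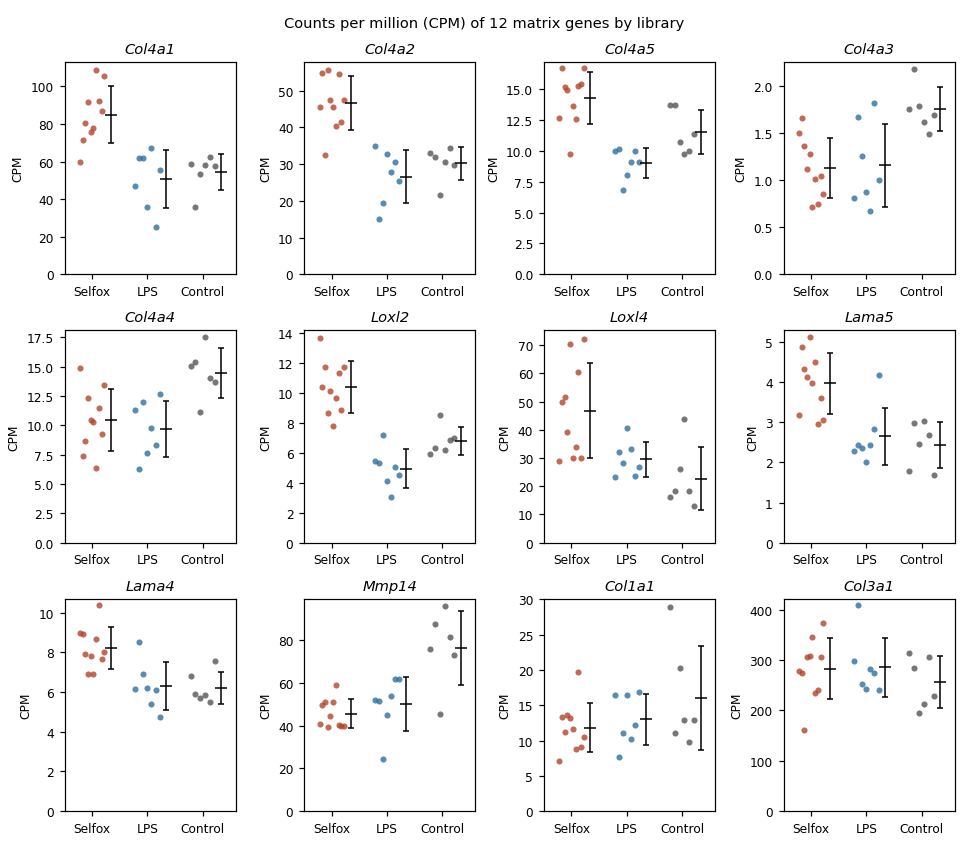
CPM of 12 matrix genes in every library (points) of the Selfox, LPS and Control groups, with the mean and SD of each group beside them as a bar. Col4a1, Col4a2 and Loxl2 sit higher in nearly all Selfox libraries, Col4a3, Col4a4 and Mmp14 sit highest in Control, and Col1a1 and Col3a1 overlap throughout.

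Laminins, the other main component of basement membranes, are trimers of an alpha, a beta and a gamma chain. Of 9 chains tested 2 rose and none fell in Selfox against Control, and 3 were higher and none lower in Selfox than in LPS. That is 22.2% and 33.3% of them, against 29.1% and 14.5% of all tested genes. Lama5, the alpha chain of mature vascular laminins, had 2.96, 4.04 and 5.11 CPM (lowest, median and highest) in Selfox, 2.0, 2.42 and 4.17 CPM in LPS and 1.69, 2.57 and 3.02 CPM in Control. Selfox 4 was the only Selfox library inside the Control range. Lama5 rose by 0.70 ± 0.17 in Selfox over Control (adjusted p = 0.00307, edgeR) and was 0.58 ± 0.16 higher than in LPS (adjusted p = 0.0129). Lama4, the other endothelial alpha chain, averaged 8.22 ± 1.05 CPM in Selfox, 6.29 ± 1.21 CPM in LPS and 6.21 ± 0.800 CPM in Control. It rose by 0.40 ± 0.11 over Control (adjusted p = 0.00875) and was 0.39 ± 0.10 higher than in LPS (adjusted p = 0.0147; 0.116 without the 5 libraries with Dbp above Arntl).

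Several other laminin chains showed smaller or less regular differences. Lamb3, a beta chain of epithelial laminin, averaged 0.999 ± 0.233 CPM in Selfox, 0.601 ± 0.181 CPM in LPS and 0.768 ± 0.246 CPM in Control, and was 0.73 ± 0.19 higher in Selfox than in LPS (adjusted p = 0.0130; 0.196 without the 5 libraries with Dbp above Arntl). Lamc1, the common gamma chain, had 32.9, 49.6 and 56.8 CPM in Selfox, 20.3, 43.6 and 56.5 CPM in LPS and 28.2, 67.4 and 88.9 CPM in Control. Control 55 was the lowest of the Control libraries, and the log2 difference of Selfox from Control was -0.37 ± 0.21 (adjusted p = 0.181) with it and the other 4 such libraries and -0.54 (adjusted p = 0.00521) without them. The difference of LPS from Control in Lamc1 was -0.61 ± 0.22 (adjusted p = 0.0699 with edgeR and 0.0387 with DESeq2). It was -0.48 without those 5 libraries (adjusted p = 0.0586, edgeR). Lamb1 and Lamb2 did not pass in any comparison with edgeR, nor did Lama2 and Lamc3, and Lamb1 was 0.30 ± 0.12 above Control in Selfox (adjusted p = 0.0545; past the threshold with DESeq2).

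Some partners of these chains in basement membranes changed as well. Of 13 tested genes on that list 3 rose and none fell in Selfox against Control, beside 14.2% and 14.9% of all tested genes. In Selfox against LPS 4 were higher and 1 lower, beside 6.86% and 7.64% of all tested genes. Nid1, a nidogen that links laminin to type IV collagen, averaged 37.6 ± 4.61 CPM in Selfox, 21.6 ± 3.29 CPM in LPS and 25.4 ± 2.13 CPM in Control, and all 10 Selfox libraries lay above all others. Its log2 fold change was 0.57 ± 0.09 over Control (adjusted p = 0.00013) and 0.80 ± 0.09 over LPS (adjusted p = 2.35e-06). Npnt and Fras1 also rose in Selfox over Control (0.99 ± 0.36 and 2.94 ± 0.80), Nid2, Npnt and Pxdn, the peroxidase that cross-links type IV collagen, were higher in Selfox than in LPS, and Smoc2 was lower. In LPS livers Smoc1 alone passed against Control, at 0.34 ± 0.11 (adjusted p = 0.0452).

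Fibrillar collagens are the main protein of scar tissue. Of 9 tested, Col5a3 rose in Selfox against Control (with edgeR and limma voom, while DESeq2 called Col5a1 and Col5a2 too), none passed in LPS against Control (0 with edgeR, DESeq2 and limma voom, and 1 at an unadjusted p under 0.05 in edgeR), and Col5a1, Col5a2 and Col5a3 were higher in Selfox than in LPS. Col1a1, the alpha 1 chain of type I collagen, had 7.07, 11.4 and 19.7 CPM (lowest, median and highest) in Selfox, 7.74, 12.2 and 16.9 CPM in LPS and 9.74, 12.9 and 29.0 CPM in Control. The groups overlapped widely, and the log2 difference from Control was -0.43 ± 0.23 in Selfox (adjusted p = 0.162) and -0.30 ± 0.25 in LPS (adjusted p = 0.458). Col3a1, type III collagen, had 161, 292 and 375 CPM in Selfox, 240, 275 and 409 CPM in LPS and 195, 257 and 314 CPM in Control, with log2 differences from Control of 0.14 ± 0.15 in Selfox and 0.15 ± 0.16 in LPS (adjusted p = 0.514 and 0.565). Col1a2, the alpha 2 chain of type I collagen, was listed at 0 in all 23 libraries beside the counts of Col1a1, so its row holds no usable value. Col2a1 had 4 counts and Col15a1 8 counts in total, and Col6a3 had no row in the table under that symbol. Col11a1, Col11a2, Col24a1 and Col27a1 passed in no comparison. By edgeR 11.1%, 0% and 33.3% of the 9 passed in Selfox against Control, LPS against Control and Selfox against LPS. All tested genes gave 29.1%, 14.7% and 14.5%.

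Type V collagen, which sets the width of type I fibrils, had its 3 chains higher in Selfox than in LPS. Col5a1 averaged 24.2 ± 6.02 CPM in Selfox, 18.0 ± 2.63 CPM in LPS and 18.4 ± 4.11 CPM in Control, and Col5a2 averaged 18.4 ± 3.42, 13.9 ± 1.92 and 14.9 ± 2.37 CPM in the same 3 groups. Against LPS the log2 differences were 0.43 ± 0.14 for Col5a1 (adjusted p = 0.0480), 0.41 ± 0.11 for Col5a2 (adjusted p = 0.0170) and 0.96 ± 0.22 for Col5a3 (adjusted p = 0.00502). The Col5a1 call was lost in 11 of 17 fits without 1 library (without Selfox 1, 3, 7, 8 or 9 or any LPS library but LPS 4; highest adjusted p 0.101), and none of the 3 held without the 5 libraries with Dbp above Arntl (adjusted p = 0.278 for Col5a1, 0.0676 for Col5a2 and 0.0567 for Col5a3). Col5a3 at 0.878 ± 0.289 CPM in Selfox and 0.513 ± 0.126 CPM in Control rose by 0.77 ± 0.24 (adjusted p = 0.0183; 0.0525 without Control 49), with 9 of 10 Selfox libraries above every Control library.

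Genes of collagen processing and secretion did not rise as a group. Of 24 tested 1 rose and 4 fell in Selfox against Control, and 1 rose and 3 fell in LPS against Control. That is 20.8% and 16.7% of them, against 29.1% and 14.7% of all tested genes. Serpinh1, the collagen chaperone of the endoplasmic reticulum, averaged 24.4 ± 3.14 CPM in Selfox, 18.3 ± 3.26 CPM in LPS and 16.1 ± 2.31 CPM in Control and rose by 0.60 ± 0.11 in Selfox over Control (adjusted p = 0.000374). The prolyl and lysyl hydroxylases P3h1, Plod1 and Plod3 fell against Control in both models, by 0.39, 0.36 and 0.25 on the log2 scale in Selfox and by 0.28, 0.26 and 0.29 in LPS, and P4ha2 fell by 0.33 in Selfox. Pcolce, which enhances procollagen cleavage, rose in LPS against Control, at 11.9 ± 12.7 CPM in LPS and 3.82 ± 0.238 CPM in Control, with a wide spread among LPS libraries.

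Collagens of the beaded and network-forming types gave no call. The 7 tested were of types VI, VIII and XXVIII, as Col10a1 of type X was too low to test and Col6a3 had no row. None passed in Selfox with Control, LPS with Control or Selfox with LPS, beside 29.1%, 14.7% and 14.5% of all tested genes. The unadjusted p in edgeR was under 0.05 in 0, 0 and 2 of them in that order. DESeq2 and limma voom called 0 of them too. Col6a1 averaged 27.6 ± 6.0 CPM in Selfox, 29.6 ± 3.52 CPM in LPS and 29.6 ± 5.19 CPM in Control. Col6a2 averaged 21.9 ± 3.94, 26.8 ± 5.17 and 25.6 ± 5.11 CPM in those groups. Col18a1, the precursor of endostatin and a basement membrane collagen made by hepatocytes too, averaged 640 ± 73.7 CPM in Selfox, 689 ± 88.4 CPM in LPS and 590 ± 67.7 CPM in Control and passed in none.

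Among collagens that sit on the surface of fibrils the changes went both ways. Col12a1, which links fibrils to other matrix and is known to respond to tension, had 5.13, 9.95 and 13.7 CPM (lowest, median and highest) in Selfox, 4.38, 7.57 and 9.75 CPM in LPS and 3.21, 4.28 and 6.43 CPM in Control. Selfox 6 was the only Selfox library inside the Control range. It rose by 1.13 ± 0.22 in Selfox over Control (adjusted p = 0.000635, edgeR), a 2.18-fold change, and stood 0.64 ± 0.23 above Control in LPS (adjusted p = 0.0627 with edgeR, and 0.0337 with DESeq2). Col14a1, its close relative, averaged 51.0 ± 8.89 CPM in Selfox, 53.1 ± 11.2 CPM in LPS and 44.6 ± 6.04 CPM in Control and did not pass, nor did Col9a2 and Col16a1. Col20a1 rose by 0.94 ± 0.29 in Selfox over Control (adjusted p = 0.0183; 0.0526 without Control 49 and 0.0889 without the 5 libraries with Dbp above Arntl).

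Col22a1 and Col26a1 had the steepest falls of the set, both at low counts. Col22a1, a collagen of tissue junctions, had 0.0295, 0.0998 and 0.246 CPM in Selfox, 0.138, 0.700 and 0.837 CPM in LPS and 0.502, 0.852 and 1.22 CPM in Control. Every Selfox library was below every Control library, on 2 to 18 counts in Selfox libraries and 16 to 50 in the less deep Control libraries. It fell by 2.86 (SE 0.38) on the log2 scale against Control (adjusted p = 1.26e-05) and by 2.38 (SE 0.36) against LPS (adjusted p = 0.000121). Col26a1 had 0 to 10 counts in Selfox libraries, 10 to 83 in LPS libraries and 7 to 30 in Control libraries, and its Selfox range of 0 to 0.137 CPM lay under the LPS range of 0.139 to 1.04 CPM and the Control range of 0.205 to 0.605 CPM. It fell by 2.52 (SE 0.52) against Control (adjusted p = 0.00104), and against LPS it fell by 2.95 (SE 0.48, adjusted p = 0.000265). Complete separation was seen in 4.91% of all tested genes between Selfox and Control and in 1.74% between Selfox and LPS.

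The transmembrane collagens gave a pair of calls. Col25a1 rose by 1.04 ± 0.35 in Selfox over Control (adjusted p = 0.0280), on 0.720 ± 0.334 CPM in Selfox and 0.344 ± 0.144 CPM in Control, and was lost without Selfox 9 or Control 41, 46, 49 or 52 (highest adjusted p 0.0748). Col17a1 was called lower in LPS than in Control on only 2 to 8 counts in LPS libraries and 4 to 14 in Control libraries, and lost in 8 of 13 fits without 1 library (without LPS 1, 2, 6 or 7 or Control 40, 41, 46 or 52; highest adjusted p 0.111), as well as without the 5 libraries with Dbp above Arntl. Col13a1 passed in none.

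Of 5 lysyl oxidases tested 3 rose and none fell in Selfox against Control, beside 14.2% and 14.9% of all tested genes. Loxl2, which cross-links type IV collagen, had 7.79, 10.3 and 13.6 CPM (lowest, median and highest) in Selfox, 3.06, 5.03 and 7.20 CPM in LPS and 5.92, 6.60 and 8.49 CPM in Control. All 10 Selfox libraries lay above all 7 LPS libraries, and 9 of 10 above every Control library. The log2 fold change was 1.07 ± 0.14 over LPS (adjusted p = 1.42e-05, edgeR), a 2.10-fold difference, and 0.61 ± 0.14 over Control (adjusted p = 0.00234). LPS livers were lower than Control by 0.46 (SE 0.15, adjusted p = 0.0429). That call was lost without LPS 1, 2, 5, 6 or 7 or any Control library but Control 55 (highest adjusted p 0.113), and without the 5 libraries with Dbp above Arntl (adjusted p = 0.198).

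Loxl4 had 29.0, 44.6 and 72.1 CPM in Selfox, 23.1, 28.3 and 40.6 CPM in LPS and 13.1, 18.3 and 43.7 CPM in Control. Control 55, at 43.7 CPM, stood above the other 5 Control libraries (13.1 to 26.1 CPM), and 5 Selfox libraries were above all of Control. Loxl4 rose by 1.05 ± 0.26 in Selfox over Control (adjusted p = 0.00412), and by 1.33 without the 5 libraries with Dbp above Arntl (adjusted p = 0.000806). Loxl3 rose by 0.55 ± 0.21 (adjusted p = 0.0451), a call lost without Selfox 1, 3, 6, 7 or 9 or Control 40, 41, 46 or 52 (highest adjusted p 0.117). Loxl1 averaged 1.42 ± 0.327 CPM in Selfox, 1.41 ± 0.336 CPM in LPS and 1.37 ± 0.516 CPM in Control.

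Lox itself, the founding member, had the widest spread in Selfox and in LPS among the 51 tested members with a mean of at least 1 CPM. It ranged from 1.63 to 105 CPM in Selfox (median 9.01), from 0.742 to 80.8 CPM in LPS (median 13.7) and from 32.3 to 133 CPM in Control (median 56.6). In 8 of 10 Selfox libraries and 6 of 7 LPS libraries it was below every Control library, while Selfox 9 and Selfox 10 (69.2 and 105 CPM) and LPS 3 (80.8 CPM) were inside the Control range. With that spread the log2 differences from Control, -1.43 ± 0.83 in Selfox and -1.65 ± 0.92 in LPS, did not pass (adjusted p = 0.202 and 0.241). With limma voom, which weights the libraries by quality, the Selfox difference was -2.44 (adjusted p = 0.0118), past the threshold, and with DESeq2 it was -1.42 (adjusted p = 0.180).

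Of 10 matrix glycoproteins and proteoglycans tested 3 rose in Selfox against Control, none passed in LPS against Control and 1 was higher in Selfox than in LPS, by edgeR. Among all tested genes 14.2% rose in the first comparison, 14.7% passed in the second and 6.86% were higher in the third. In LPS against Control 3 were at an unadjusted p under 0.05, DESeq2 called Dcn (adjusted p = 0.0345) and limma voom called Fn1 (adjusted p = 0.0453). Fn1, fibronectin, averaged 3131 ± 393 CPM in Selfox, 3101 ± 307 CPM in LPS and 3648 ± 541 CPM in Control, with log2 differences from Control of -0.22 ± 0.10 in Selfox and -0.23 ± 0.10 in LPS (adjusted p = 0.0871 and 0.132). Without the 5 libraries with Dbp above Arntl the Selfox difference was -0.30 (adjusted p = 0.0117), and with limma voom -0.29 (adjusted p = 0.0121). Fbln2, an elastic fibre protein, had 1.35, 1.79 and 2.49 CPM in Selfox, 0.644, 1.56 and 2.07 CPM in LPS and 0.727, 1.14 and 1.38 CPM in Control, and 8 of 10 Selfox libraries exceeded all of Control (log2 fold change 0.73 ± 0.20, adjusted p = 0.00694). In LPS it stood 0.48 above Control (adjusted p = 0.125), and 0.76 without the 5 libraries with Dbp above Arntl (adjusted p = 0.0158).

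Bgn, biglycan, a small proteoglycan of collagen fibrils, had 87.6, 129 and 154 CPM in Selfox, 89.2, 113 and 131 CPM in LPS and 80.8, 101 and 110 CPM in Control and rose by 0.36 ± 0.10 in Selfox over Control (adjusted p = 0.00930). Fbn1, fibrillin, rose by 0.44 ± 0.16 in Selfox (adjusted p = 0.0428), but not without Selfox 1, 2, 7, 8 or 9 or Control 40, 41, 52 or 55 (highest adjusted p 0.103), nor without the 5 libraries with Dbp above Arntl (0.35, adjusted p = 0.128). Sparc, a collagen-binding glycoprotein, was 0.30 ± 0.10 higher in Selfox than in LPS (adjusted p = 0.0410), and lost in 10 of 17 fits without 1 library (without Selfox 1, 3, 7, 8, 9 or 10 or LPS 3, 5, 6 or 7; highest adjusted p 0.0952). Without the 5 libraries with Dbp above Arntl the Sparc difference was 0.15 (adjusted p = 0.380). Dcn, decorin, averaged 10.5 ± 3.96 CPM in Selfox, 14.6 ± 8.28 CPM in LPS and 8.27 ± 1.66 CPM in Control and stood 0.82 ± 0.31 above Control in LPS (adjusted p = 0.0804). Eln, elastin, averaged 5.40 ± 0.983 CPM in Selfox, 4.68 ± 1.98 CPM in LPS and 5.88 ± 1.47 CPM in Control. Lum, lumican, averaged 0.873 ± 0.413 CPM in Selfox, 1.33 ± 0.970 CPM in LPS and 1.31 ± 0.639 CPM in Control. Eln, Lum, Vcan and Postn passed in no comparison. Postn, periostin, was at 0.135 ± 0.105 CPM in Selfox, 0.336 ± 0.415 CPM in LPS and 0.287 ± 0.320 CPM in Control.

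Among 10 tested MMPs Mmp14 was the gene that fell in both models. It encodes a membrane-bound collagenase that also activates pro-MMP2. It had 39.3, 42.9 and 58.9 CPM (lowest, median and highest) in Selfox, 24.4, 51.9 and 61.9 CPM in LPS and 45.4, 78.6 and 95.8 CPM in Control. Control 55 was the lowest Control library, and the other 5 (73.3 to 95.8 CPM) were above every Selfox and LPS library. Mmp14 fell by 0.75 (SE 0.16) on the log2 scale in Selfox (adjusted p = 0.00114, edgeR) and by 0.61 (SE 0.17) in LPS (adjusted p = 0.0189), both against the same Control libraries. The LPS call was lost without Control 49 (adjusted p = 0.0543) and when only LPS and Control libraries were fitted (adjusted p = 0.0546), while without the 5 libraries with Dbp above Arntl the falls were 0.88 in Selfox and 0.55 in LPS (adjusted p = 3.21e-06 and 0.00504). Between the models the log2 difference was -0.14 in Selfox from LPS (adjusted p = 0.603), and -0.34 without those libraries (adjusted p = 0.0489).

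Mmp17 was lower in LPS than in Control by 0.60 (SE 0.19, adjusted p = 0.0365), a call lost without LPS 2, 3, 5 or 6 or any Control library but Control 55 (highest adjusted p 0.0977). Mmp2, the gelatinase of stellate cells, averaged 10.7 ± 2.35 CPM in Selfox, 11.6 ± 2.04 CPM in LPS and 11.3 ± 1.62 CPM in Control and passed in none, nor did Mmp3, Mmp15, Mmp16, Mmp19, Mmp23 and Mmp24. Mmp12, the elastase of macrophages, had 0.466, 1.13 and 4.31 CPM in Selfox, 0.104, 0.334 and 0.826 CPM in LPS and 0.276, 1.08 and 2.13 CPM in Control. It was 1.88 ± 0.49 higher in Selfox than in LPS (adjusted p = 0.0117), with 9 of 10 Selfox libraries above every LPS library, and its difference from Control was 0.61 ± 0.49 in Selfox and -1.27 ± 0.54 in LPS (adjusted p = 0.377 and 0.119). Kupffer cell and macrophage markers moved the other way between the models, as 11 of 12 were lower in Selfox than in LPS, beside 7.64% of all tested genes. Their sum was 347 to 487 CPM in Selfox, 699 to 1075 CPM in LPS and 807 to 1105 CPM in Control. Their part was not tested.

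The inhibitors did not move together either. Timp2 had 4.66, 7.21 and 8.28 CPM in Selfox, 7.92, 10.8 and 11.6 CPM in LPS and 6.28, 8.00 and 9.18 CPM in Control. It was lower in Selfox than in LPS by 0.55 (SE 0.11, adjusted p = 0.00208), with 8 of 10 Selfox libraries below every LPS library, and LPS stood 0.37 ± 0.13 above Control (adjusted p = 0.0581 with edgeR, 0.0427 with DESeq2 and 0.0285 with limma voom). Timp3, the inhibitor held in the matrix, had 10.8, 14.8 and 37.1 CPM in Selfox, 8.93, 14.9 and 16.7 CPM in LPS and 9.52, 11.3 and 13.7 CPM in Control, and rose by 0.89 ± 0.28 in Selfox over Control (adjusted p = 0.0204). The rise rested on some of the libraries. Selfox 3, 4, 5 and 8 had 27.7 to 37.1 CPM, against 10.8 to 15.5 CPM in the other 6, and the call was lost with limma voom (adjusted p = 0.0591) and without the 5 libraries with Dbp above Arntl (adjusted p = 0.0713).

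Those 4 Selfox libraries were also the highest of their group for Timp1 and Mmp3. Timp1, the inhibitor that is induced in inflamed liver, had 5.40 to 6.91 CPM in Selfox 3, 4, 5 and 8 and 3.00 to 3.67 CPM in the other 6, while the Control libraries had 3.28 to 4.70 CPM. Timp1 passed in no comparison (0.16 ± 0.20 in Selfox over Control, adjusted p = 0.581). Loxl4 was at 60.6 to 72.1 CPM in Selfox 3, 4 and 5. Mmp13, the rat interstitial collagenase, was too low to test but had 49 counts in Selfox 3 and 28 in Selfox 8, against at most 12 in any other library. Over the 51 tested members with a mean of at least 1 CPM, the median ratio of the highest to the lowest library was 2.03 in Selfox, 1.94 in LPS and 1.61 in Control.

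**Figure D3:**
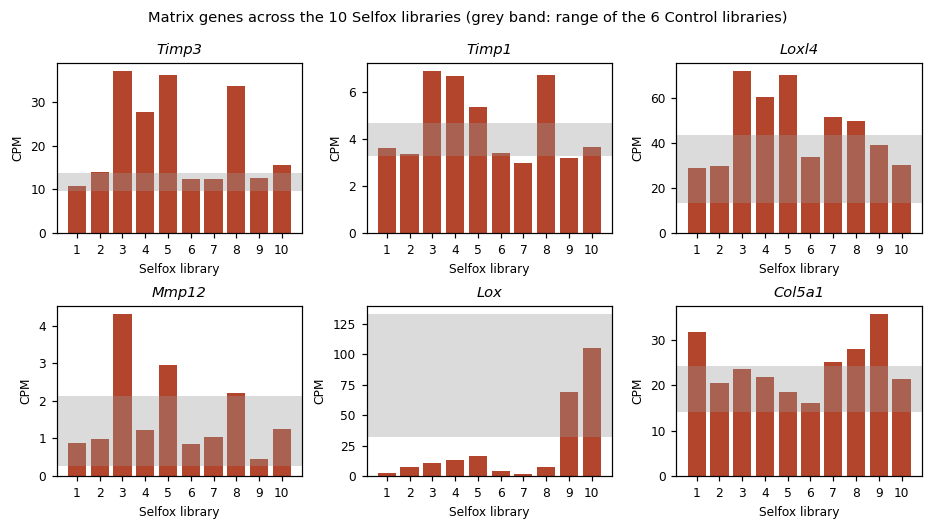
CPM of Timp3, Timp1, Loxl4, Mmp12, Lox and Col5a1 in each of the 10 Selfox libraries (bars, from 0), with the range of the 6 Control libraries as a grey band. Timp3 stands above the band in 6 libraries, with Selfox 3, 4, 5 and 8 at 27.7 to 37.1 CPM, while Lox reaches the band in Selfox 9 and 10 alone.

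Signals and receptors that act with the matrix changed in part. Of 23 tested genes of TGF-beta and PDGF signalling 6 rose and 3 fell in Selfox against Control and 1 rose and 1 fell in LPS against Control. That is 39.1% and 8.70% of them, against 29.1% and 14.7% of all tested genes. Tgfb1 averaged 6.97 ± 1.58 CPM in Selfox, 6.97 ± 1.36 CPM in LPS and 6.95 ± 0.733 CPM in Control. Tgfb3 rose in both models, by 0.84 ± 0.26 in Selfox and by 0.83 ± 0.27 in LPS (adjusted p = 0.0169 and 0.0426), and Tgfb2 fell by 1.00 (SE 0.27) in LPS. Pdgfb, the growth factor of stellate cells and pericytes, averaged 1.11 ± 0.495 CPM in Selfox, 0.348 ± 0.0776 CPM in LPS and 0.268 ± 0.134 CPM in Control (2.07 ± 0.34 over Control, adjusted p = 0.000114). The 3 that fell in Selfox against Control were Tgfbr1, Smad7 and Pdgfra, and Smad7 and Pdgfra were also lower in Selfox than in LPS. Of 26 matrix receptors 5 rose and 2 fell in Selfox against Control and none passed in LPS against Control (4 at an unadjusted p under 0.05). That is 26.9% against 29.1% of all tested genes in Selfox, and 0% against 14.7% in LPS. Itga1, the alpha chain of a collagen receptor that also binds type IV collagen, rose by 0.50 ± 0.09 (adjusted p = 0.000281) and Ddr2, a receptor for fibrillar collagen, by 0.81 ± 0.18 (adjusted p = 0.00143). The 2 that fell were Sdc3 and Itgb4.

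Marker lists of the cells that make matrix did not all move one way. Against Control, 58.3% of smooth muscle and myofibroblast, 41.2% of stellate cell, 14.3% of portal and 20.0% of cholangiocyte markers passed in Selfox livers. Of all tested genes 29.1% did. In LPS livers the shares were 16.7%, 11.8%, 7.14% and 30.0%, against 14.7% of all tested genes. Of 12 smooth muscle and myofibroblast markers 7 rose in Selfox against Control and 2 in LPS against Control, none fell, and their sum was 167 to 231 CPM in Selfox, 176 to 210 CPM in LPS and 146 to 165 CPM in Control. Acta2, smooth muscle actin, averaged 10.2 ± 2.56 CPM in Selfox, 4.75 ± 0.899 CPM in LPS and 4.18 ± 0.537 CPM in Control, with all 10 Selfox libraries above all others (1.29 ± 0.16 over Control, adjusted p = 6.02e-06). Of 17 stellate cell markers 4 rose (Bmp10, Rgs5, Lrat and Des) and 3 fell (Hgf, Colec11 and Ecm1) in Selfox against Control, and the sums overlapped at 357 to 474 CPM in Selfox, 420 to 564 CPM in LPS and 372 to 548 CPM in Control. Portal fibroblast and mesothelial markers summed to 99.5 to 294 CPM in Selfox, 72.7 to 195 CPM in LPS and 69.7 to 95.2 CPM in Control, with 2, 1 and 1 of 14 higher in Selfox against Control, LPS against Control and Selfox against LPS. Of all tested genes 14.2%, 7.71% and 6.86% were higher in the same comparisons, so this list changed about as often as any gene. Of 10 cholangiocyte markers 2 (Epcam and Krt19) rose in Selfox against Control and 3 (Epcam, Krt7 and Cldn4) in LPS against Control, and their sum was 29.7 to 41.2 CPM in Selfox, 29.4 to 42.4 CPM in LPS and 22.8 to 35.5 CPM in Control. No marker gene with a row in the table was at 0 in all libraries. Some genes stand on more than 1 list, as Des does on the stellate cell and smooth muscle lists. Krt19 stands on the portal and cholangiocyte lists and is 1 of the 2 portal calls in Selfox against Control. Ecm1 is also counted among the other matrix proteins below. The part of these cells in the results for matrix genes was not tested.

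**Figure D4:**
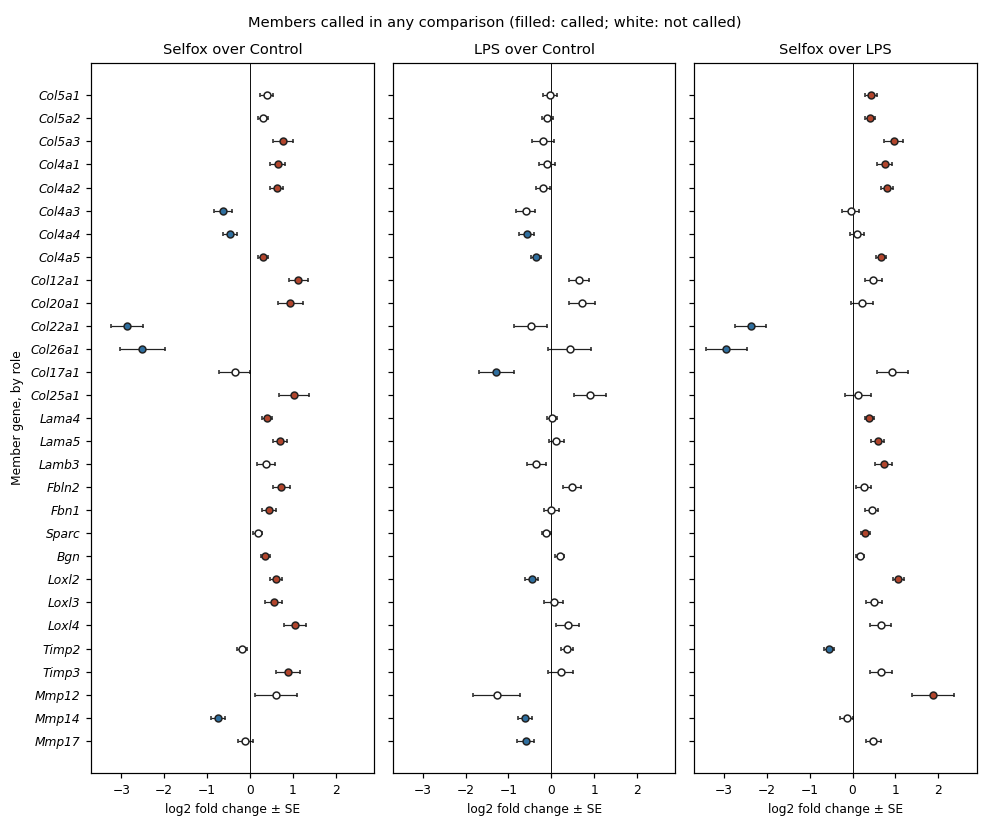
Log2 fold changes with their SE for 29 members that passed in at least 1 comparison, in 3 panels for Selfox over Control, LPS over Control and Selfox over LPS; filled points passed (red higher, blue lower) and white points did not. Col4a1, Col4a2, Col4a5, Lama4, Lama5, Loxl2 and Col5a3 are filled red in both Selfox panels, Col22a1 and Col26a1 filled blue in both, and Mmp14 and Col4a4 filled blue against Control in both models.

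Across all alternatives 12 of the 21 calls of Selfox against Control held (Bgn, Col12a1, Col22a1, Col26a1, Col4a1, Col4a2, Fbln2, Lama4, Lama5, Loxl2, Loxl4 and Mmp14), 1 of 7 of LPS against Control and 9 of 15 of Selfox against LPS (Col22a1, Col26a1, Col4a1, Col4a2, Col4a5, Lama5, Loxl2, Mmp12 and Timp2). The other 21 calls, 9, 6 and 6 of them in these comparisons, were each lost in at least 1 alternative. The alternatives were read out for members alone, so calls of partner, signalling, receptor and marker genes were not checked in this way.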

How the data were processed

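The deposited table holds the counts of reads per gene that the authors made for 28913 genes in 23 rat liver libraries. Per the submitters' processing notes, reads were checked with FastQC, trimmed with Trim Galore, aligned with STAR 2.7.9a and counted with featureCounts of Subread 2.0.3; for the genome build, the annotation and the strand setting the sources used here give nothing, so reads of overlapping genes on opposite strands may not be told apart. Even numbers made up 66.1% to 74.9% of the low counts of each library, and counts divided by 2 were therefore run as an alternative.

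The filterByExpr function of edgeR 4.0.16 (minimum count 10) left 15079 genes, with 99.99% of all reads counted. TMM scaling was used, and 1 robust quasi-likelihood model covered the 3 groups of 10 Selfox, 7 LPS and 6 Control libraries (biological coefficient of variation 0.235). Comparisons were tested with the quasi-likelihood F test and Benjamini-Hochberg adjustment over all tested genes, at a threshold of 0.05. The SE was taken as the absolute log2 fold change over the root of F. CPM values use TMM-scaled library sizes, and log2 CPM a prior count of 2. No gene lengths were used, so levels are compared between libraries and not between genes.

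Alternative settings were upper-quartile or RLE scaling, no low-count filter or a minimum count of 50, DESeq2 1.42.0, limma voom (limma 3.58.1) with quality weights, fits of only the 2 groups compared, leaving out each library in turn, all 5 libraries with Dbp above Arntl left out, counts thinned to equal depth, counts divided by 2, and a block of shared replicate numbers. R 4.3.3 was used, and the edgeR fit, but not the other steps, was tested on simulated data.

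The members, the lists of partners and markers and the alternatives were chosen with earlier results of these data known. Named in the text were up to 12 called members per direction and comparison, 36 members given whatever their result, and up to 4 called genes of each other list. More genes of a list were named where both those that rose and those that fell are given. Col25a1, Loxl3, Mmp3, Mmp13 and a few members without a call were added after their values were seen. A member and a signalling gene are counted in the totals but are not reported here. Labels give no batch, so none was modelled.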

Additional observations from a re-analysis of the deposited data

Results flagged for a closer look

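In 11 of 141 gene and group combinations examined (7.80%), 1 library stood far from the rest of its group, where chance gives about 1 in 20 and the combinations share libraries; values are log2 CPM and no explanation was tested. Control 55 was lowest for Col4a1 (5.17, others 5.73 to 5.96), Col4a2 (4.44, others 4.90 to 5.10) and Mmp14 (5.51, others 6.20 to 6.58). LPS 6 was lowest for Mmp14 (4.61, others 5.49 to 5.95) and Fbln2 (-0.57, others 0.54 to 1.07). Selfox 6 was lowest for Lamb1 (2.66, others 3.09 to 3.56) and Col12a1 (2.37, others 3.15 to 3.78). Selfox 8 was highest for Vcan, the proteoglycan versican (2.5, others -0.74 to 0.89), and lowest for Col4a5 (3.29, others 3.66 to 4.07). LPS 4 was highest for Col3a1 (8.68, others 7.91 to 8.23), and LPS 5 lowest for Col22a1 (-2.57, others -1.07 to -0.20). Of these libraries Control 55, LPS 5, LPS 6 and Selfox 8 have Dbp above Arntl.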

How the results depend on the processing

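No result for a member changed direction among those past the threshold. For LPS against Control the count of changed members, 7 of 72, was 2 with no low-count filter, 11 with DESeq2, 3 with the 2 groups alone and 4 without the 5 libraries with Dbp above Arntl, and 2 (without Control 49) to 8 (without Control 55) with 1 library left out, including 3 without Control 46 or Control 52 and 4 without LPS 5. The cause was not tested. Selfox against Control gave 19 to 25 in place of 21 under the other settings and 15 (without Control 52) to 23 (without Selfox 10) with 1 library left out. Selfox against LPS gave 10 (without the libraries with Dbp above Arntl) to 20 (DESeq2) in place of 15, and 13 (without Selfox 3) to 19 (without LPS 4) with 1 library left out. A replicate block for the numbers 1 to 7 that LPS and Selfox share gave 10 changed members and the same 14 libraries without it 11. The shared numbers showed no clear pairing, as 1 of 7 pairs deviated together beyond a correlation of 0.1 (range -0.06 to 0.18) and 1 library correlated best with its own number. A factor shared by few genes would not show in these correlations over all tested genes. Over all single members and settings, 153 values lost the threshold and 92 gained it, against 5266 that kept their side; 2 more moved with no call on either side, those of Col6a5 without the libraries with Dbp above Arntl (-0.59 in LPS against Control and 0.12 in Selfox against LPS, in place of 0.33 and -0.79). Members under about 1 CPM, such as Col22a1, Col26a1, Col17a1 and Postn, rest on few counts, and Control libraries are the least deep.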

Other observations

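Some matrix proteins beyond the set also differed between groups. Of 22 such genes tested 3 rose (Dpt, Thbs1 and Ltbp4) and 1 fell (Ecm1) in Selfox against Control, and 4 rose in LPS against Control (Efemp2, Ltbp4, Dpt and Ltbp1), by edgeR. That is 18.2% of them in each comparison, against 29.1% of all tested genes in Selfox and 14.7% in LPS. Dpt, dermatopontin, a protein that binds decorin and speeds collagen fibril formation, averaged 538 ± 99.0 CPM in Selfox, 410 ± 75.0 CPM in LPS and 290 ± 47.7 CPM in Control, and all 10 Selfox libraries and 6 of 7 LPS libraries lay above every Control library (0.89 ± 0.14 in Selfox over Control, adjusted p = 6.29e-05, and 0.50 ± 0.14 in LPS over Control, adjusted p = 0.0216). Thbs1, thrombospondin, an activator of latent TGF-beta, averaged 25.8 ± 22.6 CPM in Selfox, 11.8 ± 4.43 CPM in LPS and 5.75 ± 1.34 CPM in Control (2.17 ± 0.47 in Selfox over Control, adjusted p = 0.00170), with all 10 Selfox libraries above all of Control. Efemp2 and Ltbp1 were lower in Selfox than in LPS, by 0.47 and 0.44 on the log2 scale.

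Of 22 other matrix proteases and inhibitors tested 4 rose (Adam19, Adamts1, Adam8 and Adam9) and 3 fell (Ctsl, Plau and Adam10) in Selfox against Control, and 1 rose (Adam15) and 2 fell (Adam12 and Reck) in LPS against Control. That is 31.8% and 13.6% of them, close to the 29.1% and 14.7% of all tested genes.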
